A study of Mus musculus with 19 samples.

Results

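Smad7, Cdkn1a and Tgfbr2, 3 genes of the transforming growth factor β (TGFβ) pathway, were examined by position in mouse skin squamous cell carcinoma. Every listed Smad2/3 binding site and every ATAC peak that overlapped a gene or the 50 kb on either side of it by at least 1 bp was assigned to that gene. This gave 14 of the 6143 listed Smad2/3 sites and 33 of the 61553 listed ATAC peaks for 3 of the 21887 protein-coding genes of the annotation. The authors title the site list as Smad2/3 bound with a motif. Bound regions without that motif may thus be missing from every site count and share given here. Copy number regions over the genes and mutations inside the windows were read in the same way. The genes were chosen by name and the sites and peaks by position alone, and a place near a gene does not say which gene a site or peak acts on.

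All 19 samples, in 10 groups, came from skin squamous cell carcinoma of C57BL/6 mice. Populations were separated by CD71, a receptor for transferrin that dividing cells carry at high level, and by H2BGFP, a fluorescent histone label that is diluted when cells divide. The quiescent population was CD71lo H2BGFPhi, the double positive one CD71hi H2BGFPhi, the double negative one CD71lo H2BGFPlo and the proliferative one CD71hi H2BGFPlo, in 2 tumours, SCC1 and SCC2, grown as allografts from 10000 injected cells. RNA-seq covered the quiescent, double negative and proliferative populations of both tumours, and ATAC-seq, which finds open chromatin by transposase insertion, covered all of these populations in 8 libraries. A further 2 ATAC libraries came from SCC3, a tumour labelled Tgfbr2KO, and the labels do not give which bases of Tgfbr2 were deleted or how. The Smad2/3 ChIP-seq sample was 1 library of cultured SCC1 cells kept in low calcium (50 uM) and given TGFβ1 at 5 ng/mL during 1 h. It was set against input DNA of SCC1, and input DNA of SCC2 served for copy number only. Both inputs are listed with the same calcium and TGFβ1 treatment as the ChIP sample.

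TGFβ binds the type II receptor, which Tgfbr2 encodes, and this kinase then activates a type I receptor. The activated receptor phosphorylates Smad2 and Smad3, which enter the nucleus with Smad4 and bind DNA beside other factors. Smad7 encodes an inhibitory Smad that blocks the receptor and is itself induced by TGFβ, a classical feedback. Cdkn1a encodes p21, an inhibitor of cyclin-dependent kinases that halts the cell cycle and is a known effector of growth arrest by TGFβ in epithelial cells. The 3 genes thus stand for the start of the pathway, its brake and its effect on division.

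Promoter sequences were taken from RefSeq on GRCm38.p6, the assembly that mm10 names, and 2 of the 3 genes matched its promoter table. Those of Cdkn1a and Tgfbr2 are shown because the start sites differed in what the lists held there: the second start of Cdkn1a had both an ATAC peak and a Smad2/3 site, the start of Tgfbr2 had a peak alone, and the first start of Cdkn1a had neither. Each is the 250 bases before the start, read 5′ to 3′ on the gene's strand, with capitals at the word CAGAC, at the word GGCGC and at the word GGCCG on either strand, all of them short words that Smad proteins are known to bind.
Cdkn1a, first start, chr17:29090729-29090978, plus strand: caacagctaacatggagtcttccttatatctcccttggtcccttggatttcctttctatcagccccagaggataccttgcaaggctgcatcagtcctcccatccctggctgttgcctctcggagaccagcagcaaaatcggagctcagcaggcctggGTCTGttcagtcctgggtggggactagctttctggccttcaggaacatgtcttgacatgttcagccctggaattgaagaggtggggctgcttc
Cdkn1a, second start, chr17:29093519-29093768, plus strand: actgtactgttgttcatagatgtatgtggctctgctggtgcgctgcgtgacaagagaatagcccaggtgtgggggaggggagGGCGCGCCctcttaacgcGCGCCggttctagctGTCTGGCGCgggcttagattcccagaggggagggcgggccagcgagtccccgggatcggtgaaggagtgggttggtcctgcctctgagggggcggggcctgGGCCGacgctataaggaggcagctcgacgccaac
Tgfbr2, chr9:116175364-116175613, minus strand: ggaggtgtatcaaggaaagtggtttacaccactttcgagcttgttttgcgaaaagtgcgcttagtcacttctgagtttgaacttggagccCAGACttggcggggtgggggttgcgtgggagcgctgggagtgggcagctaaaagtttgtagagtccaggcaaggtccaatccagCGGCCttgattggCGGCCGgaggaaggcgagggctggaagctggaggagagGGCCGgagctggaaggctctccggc

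The stretch at the second start of Cdkn1a held the most matches. It held 4 matches to GGCGC, 1 to GGCCG and 1 to CAGAC, and the CAGAC match, read on the opposite strand, was also the stretch's 1 match to the longer CAGACA and shared a base with a GGCGC match. It also held 2 matches to GGGCGG, the core of the Sp1 box, and a TATAA, and 64.8% of its bases were G or C. The first start of Cdkn1a had 1 CAGAC and 1 TATAA, with 54.0% G or C. The Tgfbr2 stretch had 1 CAGAC and 4 matches to GGCCG, on both strands and in part overlapping, no TATAA, and 58.4% G or C. GTCTAGAC, the palindrome of joined Smad boxes, and TGANTCA, the AP-1 word, matched in none of the 3 stretches. Short words are common: of 32851 promoter windows of 300 bases (250 before the start and 50 after), 49.6% held CAGAC on either strand, 21.0% CAGACA, 36.9% GGCGC, 35.2% GGCCG, 35.7% GGGCGG, 24.9% TATAA, 7.81% TGANTCA and 0.213% GTCTAGAC. The Smad2/3 site at the second start of Cdkn1a covered 67 of the window's 300 bases, and none of these matches lay in that part. The rest of the 201 bp site lay outside the window and was not searched. The letters are a description of the window, not of binding, and the sources used here do not name the motif behind the site list.

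Smad7 carried the most Smad2/3 sites of the 3 genes, 9 in the 128.6 kb formed by the gene (chr18:75367365-75395935) and its flanks. Cdkn1a carried 4 in 109.7 kb around chr17:29090979-29100722, and Tgfbr2 carried 1 in 187.7 kb around chr9:116087695-116175363. At least 1 site within 50 kb is a property of 30.8% of protein-coding genes, and the median gene had 0. The single site of Tgfbr2 is thus a count that 30.8% of genes reach. At least 4 sites, as at Cdkn1a, were listed for 818 genes (3.74%), and at least 9, as at Smad7, for 39 genes (0.178%), with 20 the highest count of any gene. These shares are of all annotated protein-coding genes, 3464 of which had no ATAC peak within 50 kb. Shares among genes with a peak were not counted. Per 100 kb of window, which takes out the length of the gene, Smad7 had 7.0 sites, Cdkn1a 3.64 and Tgfbr2 0.533. At least the density of Smad7 was found at 15 genes, Smad7 included. These counts are of bound sites with the motif, so a low count does not show that Smad2/3 binding was absent. With 1 ChIP library and sites listed as positions without a score, neither strength of binding nor an error could be given.

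**Figure D1:**
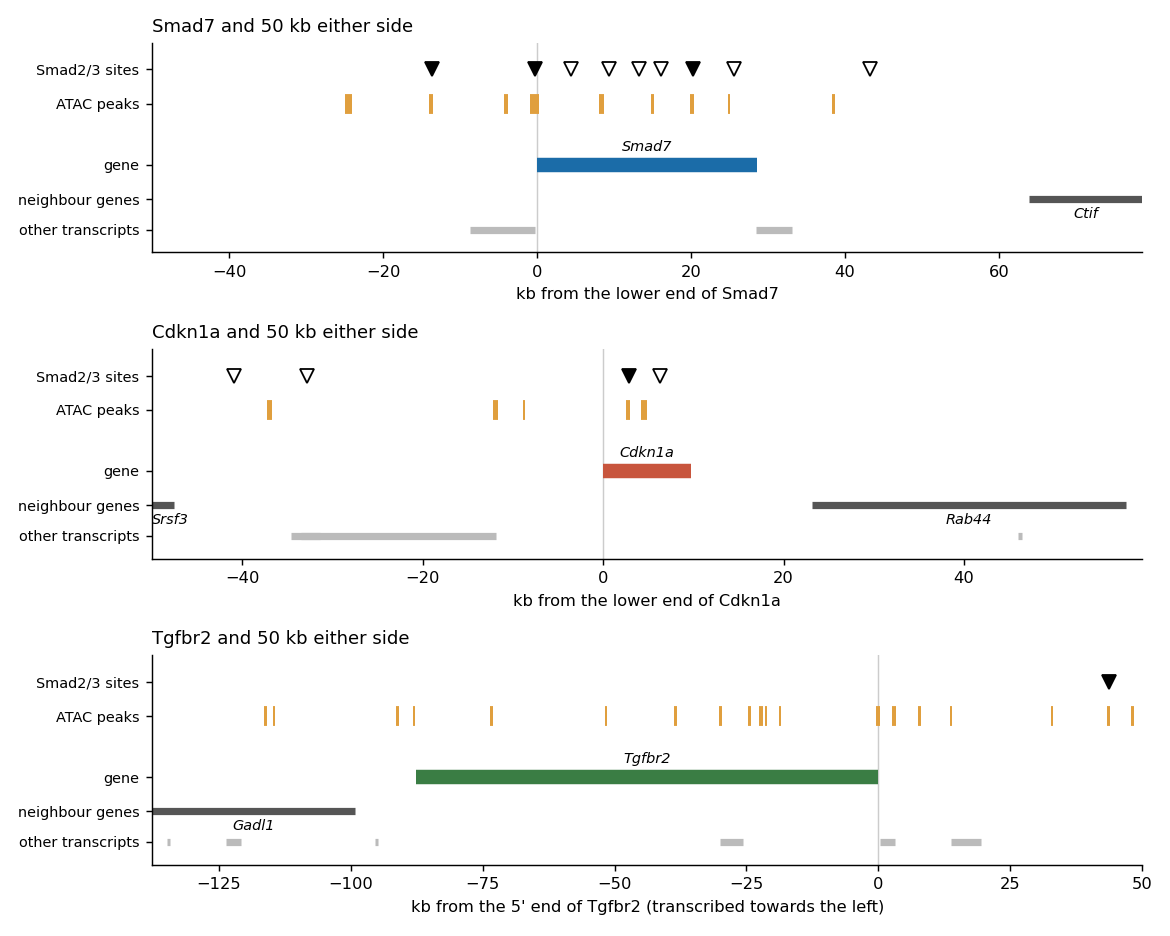
Maps of the 3 loci, with distance in kb on the horizontal axis, counted from the lower end of Smad7 and Cdkn1a and from the 5′ end of Tgfbr2. Triangles are Smad2/3 sites (filled where they overlap an ATAC peak), orange bars are ATAC peaks, and thick bars are genes; Smad7 shows 9 sites, Cdkn1a 4 and Tgfbr2 1, beside 9, 5 and 19 peaks.

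The Smad7 sites were spread along the gene. The gene is transcribed from its lower coordinate, and distances are given from there to the centre of each 201 bp site. One site lay 13.61 kb before the start and a second 0.23 kb before it. The other 7 followed at 4.40, 9.30, 13.28, 16.09, 20.21, 25.58 and 43.30 kb, the first 6 of them in the body of the gene. Between 0.23 kb before the start and 25.58 kb after it, neighbouring centres were 4.63, 4.89, 3.98, 2.80, 4.12 and 5.37 kb apart. The run thus had a site every few kilobases from the start to near the far end of the gene. Over all, 47 protein-coding genes (0.215%) had 6 or more sites in the gene body itself. Exons and introns were not separable in the annotation used, which gives the ends of each gene only.

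The 4 Cdkn1a sites formed a near and a far pair. RefSeq gives the gene starts at 29090979 and 29093769, which are 2790 bp apart. The site at chr17:29093752-29093952 had its centre 0.08 kb after the second start, and the site at chr17:29097158-29097358 lay 3.49 kb after it, so the centres of this pair were 3.41 kb apart. At least 2 sites in the gene body, as here, were listed for 698 genes (3.19%). The far pair lay 40.94 and 32.83 kb before the first start. The site at 32.83 kb overlapped Trp53cor1, the long noncoding RNA known as lincRNA-p21, and the shorter noncoding gene Gm41556.

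The single Tgfbr2 site, at chr9:116218990-116219190, was 43.73 kb before the start of the gene. It lay outside every protein-coding gene of the window, and the nearest other listed site was 164542 bp away. No listed site overlapped the gene body of Tgfbr2, although at 87669 bp it is the longest of the 3 genes. Sites near each other were the rule at the other loci and not at this one. Of the 14 sites, 11 had another listed site within 10 kb, all of them at Smad7 and Cdkn1a. Over all listed sites 35.9% did, and the median distance to the next site was 20031 bp. Close spacing is in part given by the counts above, since many sites in a window stand closer together.

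The ATAC peaks gave another order. Tgfbr2 had 19 peaks, 9 of them touching the gene body, Smad7 had 9 with 5 touching the body, and Cdkn1a had 5 with 2 touching the body. A peak within 50 kb is near universal, at 84.2% of protein-coding genes, and the median gene had 5, the count of Cdkn1a. At least 5 peaks were found at 51.3% of genes, at least 9 at 20.5% and at least 19 at 1.53%. Tgfbr2 also had the widest window, and per 100 kb of window it had 10.1 peaks, Smad7 7.0 and Cdkn1a 4.56, against a median of 3.45, and 3.89% of genes were as dense as Tgfbr2 or denser. Peaks covered 10250 bp at Tgfbr2 (5.46% of the window), 5200 bp at Smad7 (4.04%) and 2500 bp at Cdkn1a (2.28%). The list joins peaks of several libraries and gives no height, so the quiescent and proliferative populations, and the Tgfbr2KO tumour, could not be set against each other at these peaks. The labels of the 8 libraries from SCC1 and SCC2 name this merged list, and those of the 2 Tgfbr2KO libraries do not.

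**Figure D2:**
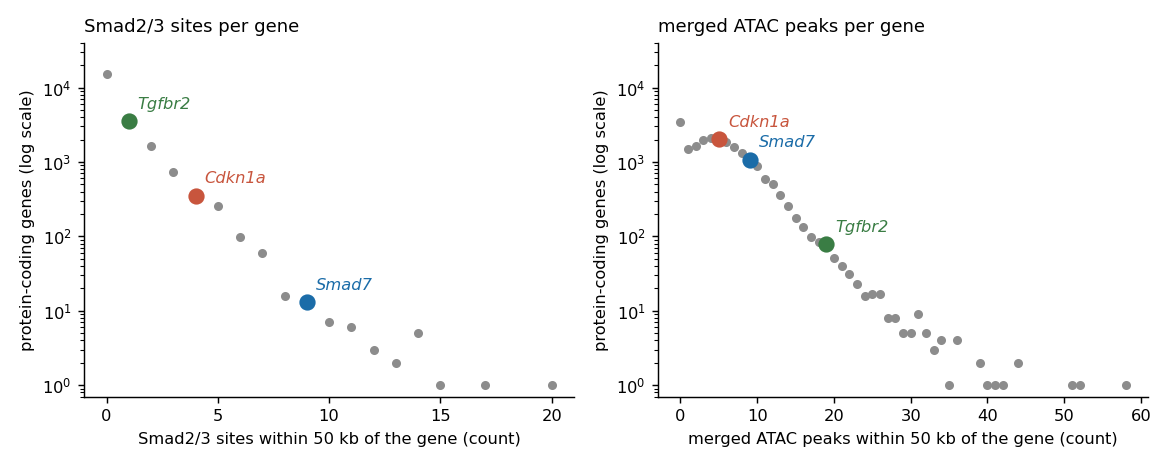
Number of protein-coding genes (vertical axis, log scale) with each count of Smad2/3 sites (left) and of merged ATAC peaks (right) within 50 kb, with the 3 genes marked in colour. Smad7, with 9 sites, lies in the thin upper tail of site counts and Tgfbr2, with 19 peaks, in the tail of peak counts, while Cdkn1a with 5 peaks stands at the median.

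Each gene had a peak over an annotated start. At Smad7 it spanned 1200 bp (chr18:75366401-75367600), the widest of the 33 peaks, a width reached by 1.03% of all listed peaks, and it also took in the end of the noncoding gene Gm20544. At Tgfbr2 it spanned 650 bp (chr9:116174951-116175600). At Cdkn1a a peak of 450 bp (chr17:29093501-29093950) covered the second start, and none covered the first. By the promoter table, 47.1% of 21263 protein-coding promoter windows overlapped an ATAC peak and 1.39% overlapped a Smad2/3 site. Of the 3 windows matched here, only the second start of Cdkn1a was of the less common kind. Smad7 had no window there, but its site centred 0.23 kb before the start lay in the peak over that start.

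Inside Tgfbr2, 4 peaks stood close together between 18.64 and 24.44 kb after the start, with widths of 400 to 800 bp. A further 4 lay between 29.96 and 73.36 kb after the start, the nearest of these overlapping the noncoding gene Gm31292. Upstream, 6 peaks lay between 2.96 and 48.19 kb before the start, and 2 of them overlapped the noncoding genes Gm40582 and Gm4668. The peak 43.69 kb before the start was the one with the Smad2/3 site. Beyond the 3′ end were 4 peaks, 2 of them inside Gadl1, a decarboxylase gene.

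At Cdkn1a the second peak of the gene body, 700 bp wide, was centred 1.73 kb after the second start. The other 3 peaks lay 36.98, 11.95 and 8.78 kb before the first start, and the one at 11.95 kb overlapped Trp53cor1 at the end that faces Cdkn1a. At Smad7, 3 peaks lay 24.52, 13.77 and 4.01 kb before the start, 4 lay inside the gene at 8.34, 14.96, 20.16 and 24.89 kb, and 1 lay beyond it at 38.44 kb.

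Most of the sites at these genes were outside the listed ATAC peaks. Smad7 had 3 of 9 sites in a peak, Cdkn1a 1 of 4 and Tgfbr2 1 of 1, together 5 of 14 (35.7%), against 3690 of all 6143 listed sites (60.1%). Near genes with at least 9 sites, Smad7 included, 40.3% of 392 sites lay in a peak. At Smad7 the sites in a peak were those 13.61 kb before the start, 0.23 kb before it and 20.21 kb after it. At Cdkn1a it was the one at the second start. Of the 33 peaks, 5 held a site, against 5.99% of all listed peaks. By gene these were 3 of 9 peaks at Smad7, 1 of 5 at Cdkn1a and 1 of 19 at Tgfbr2.

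Sites outside a peak were still close to one. The Smad7 sites at 25.58, 9.30, 16.09 and 13.28 kb lay 448, 564, 850 and 1403 bp from the nearest peak, and those at 4.40 and 43.30 kb lay 3532 and 4561 bp away. The Cdkn1a site at 3.49 kb was 1308 bp from a peak, and the far pair was 3609 and 3796 bp away. Of these 9 sites 5 lay within 2 kb of a peak, against 30.5% of all sites outside peaks, whose median distance was 4946 bp. Both windows were denser in peaks than the median gene, at 3.45 peaks per 100 kb. Smad7, with 6 of the 9 sites, had 7.0, and Cdkn1a, with 3, had 4.56. The part of peak density in these distances was not tested. The ChIP was on cultured cells after TGFβ1 and the ATAC-seq on sorted tumour cells, and the part of this difference in the overlap was not tested.

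**Figure D3:**
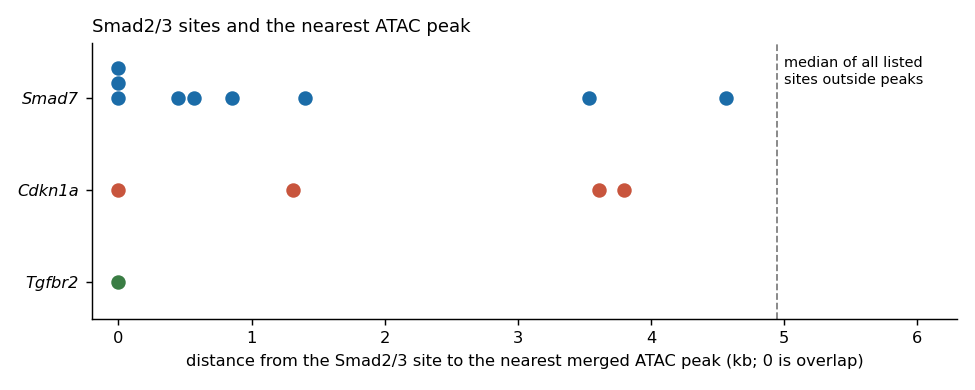
Distance in kb from each of the 14 Smad2/3 sites (points, 1 row a gene) to the nearest merged ATAC peak, with overlap drawn at 0 and points that share a value stacked. All 9 sites outside a peak lie nearer than 4946 bp, the median of all listed sites outside peaks (dashed line).

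Of the 3 genes, only Cdkn1a lay in a listed copy number region. In the authors' deposited table, which rests on the input DNA of the treated cells, Cdkn1a lay in a gain in both tumours. It had 3 copies in SCC1 and 4 in SCC2. The SCC1 region was broad, chr17:15500000-43200000, or 27.7 Mb, with a Wilcoxon p of 2.33e-29 in the authors' deposited table. The SCC2 region was narrow, chr17:28300000-29700000, or 1.4 Mb, with a Wilcoxon p of 2.57e-09 in the authors' deposited table. In SCC2 a region of 3 copies adjoined it below, with its edge 0.791 Mb from the gene, and the next region above began 2.40 Mb from the gene and also had 3 copies. A gain is common in these tumours: 42.9% of protein-coding genes lay over one in SCC1 and 40.8% in SCC2, and a gain of at least 4 copies in SCC2 held 3.39%. In each tumour taken alone a gain over Cdkn1a is thus near the background, while its 4 copies in SCC2 belong to the smaller share. The share of genes gained in both tumours was not counted. Gains far outnumbered losses among the listed regions, 137 to 14 in SCC1 and 125 to 18 in SCC2. The SCC1 region over Cdkn1a and the SCC2 region below the gene both began at chr17:15500000. What gave the 2 tumours a shared edge was not tested.

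Smad7 and Tgfbr2 were in no listed region of either tumour. The nearest regions to Smad7 had 3 copies and lay 7.27 Mb below and 4.20 Mb above it in SCC1, and 38.6 Mb below it in SCC2. The nearest region to Tgfbr2 was the same in both tumours, chr9:107700000-110600000, with 3 copies and its edge 5.49 Mb away. For that region the authors' deposited table gave a Wilcoxon p of 4.63e-12 in SCC1 and 2.02e-08 in SCC2. The copy gain and the ChIP share a tumour: 38.3% of all Smad2/3 sites and 31.1% of all ATAC peaks lay in SCC1 gains. The 4 sites of Cdkn1a lay in such a gain and the 9 of Smad7 did not. The part of copy number in the site counts was not tested.

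**Figure D4:**
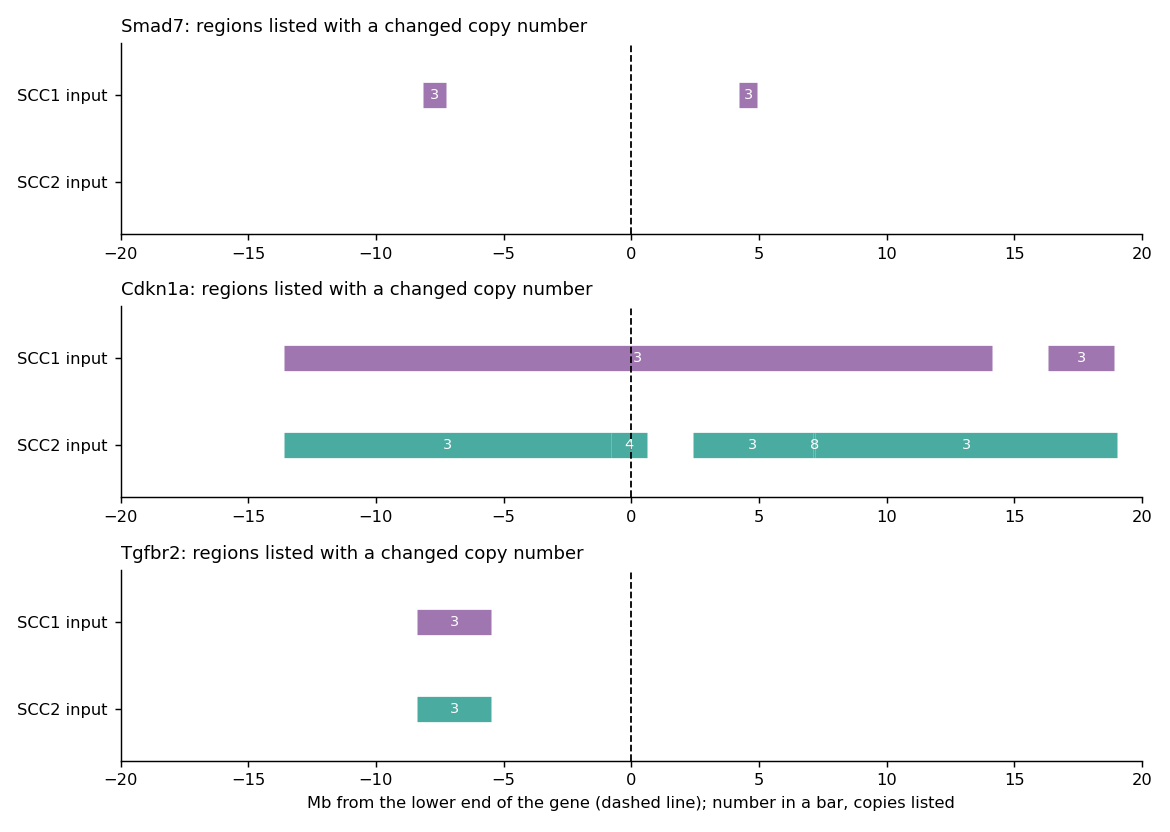
Regions with a changed copy number within 20 Mb of each gene in input DNA of SCC1 (purple) and SCC2 (green), with distance in Mb from the lower end of the gene (dashed line) and the listed copies written in each bar. Regions over the gene are drawn for Cdkn1a alone, with 3 copies in SCC1 and 4 in SCC2.

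The expression and mutation tables held nothing on the 3 genes. Smad7, Cdkn1a and Tgfbr2 had no entry among the 1609 genes of the authors' deposited table of log2 ratios, under their symbols or the synonyms of the annotation. None of the other protein-coding genes of the windows, Ctif (a translation factor), Srsf3 (a splicing factor), Rab44 (a small GTPase) and Gadl1, had one either. The authors title that list as differentially expressed genes, but the sources used here do not give the comparison or threshold that picked them. The missing entries thus show only that the genes were not on the list. They give no size for any difference between populations. The nearest gene with a ratio was Ppil1 for Cdkn1a, at 150 kb. The mutation table, of 1426 entries in 540 genes called from RNA-seq, listed none in the 3 genes or their windows. The nearest mutated genes were Zbtb7c, 0.75 Mb from Smad7, Fance, 0.768 Mb from Cdkn1a, and Stt3b, 0.832 Mb from Tgfbr2. Calls from RNA need reads at a site, and with no level for these genes the lack of calls sets no limit on mutation.

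The genes most like each member were found by the count of sites, then of peaks, then by gene length. For Smad7 they were the DNA repair gene Xpc, with 9 sites and 9 peaks, the cardiac troponin gene Tnnt2, with 9 sites and 10 peaks, and the mitochondrial import gene Tomm20, with 9 sites and 8 peaks. Their sites overlapped peaks in 4, 6 and 3 cases in that order, beside 3 at Smad7. For Cdkn1a they were Mab21l4, the kinase gene Sik1 and the protease inhibitor gene Spint1, each with 4 sites and 5 peaks, of which 2, 0 and 4 sites lay in a peak, beside 1 at Cdkn1a. For Tgfbr2 they were Itgav, which encodes integrin αv, Cemip2 and Plekha2, each with 1 site, in a peak, and 19 peaks.

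Among 49 other genes of the pathway 25 (51.0%) had at least 1 Smad2/3 site within 50 kb, against 30.8% of all protein-coding genes. The latter include 3464 genes with no ATAC peak within 50 kb, and a share among genes with a peak was not counted. All 49 pathway genes had an ATAC peak. None reached the 9 sites of Smad7: the highest counts were 7 at Pmepa1, a membrane protein that restrains the pathway, and at Smad3, then 6 at Id1 and at Nedd4l, and 5 at Eng, Junb, Ski, Smad6 and Tgfb1. Smad6, the other inhibitory Smad, thus had 5 sites and 6 peaks, beside 9 and 9 at Smad7. Of 13 other receptor genes, 8 had 0 sites, Tgfbr1, Acvr1 and Acvr1b had 1, Bmpr1a had 2 and Eng, the co-receptor endoglin, had 5, so the 1 site of Tgfbr2 was above the median of 0 and below the highest. Of the ligands, Tgfb1 had 5 sites and Tgfb2 and Tgfb3 had 0. Of the other inhibitors of cyclin-dependent kinases, Cdkn1b, Cdkn2a and Cdkn2d had 0 sites and Cdkn1c, Cdkn2b and Cdkn2c had 1, beside 4 at Cdkn1a.

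For 15 of the 49 genes the authors' deposited table gave log2 ratios, each from 1 library a population and tumour, with no level, depth or error. In such bulk samples fewer cells of a type and less RNA per cell cannot be told apart. A gene was counted where its ratio reached 1 in size with the same sign in both tumours. Quiescent over proliferative, 6 were higher, against 11.3% of all genes in the authors' deposited table, and 1 was lower, against 23.3%. The list's median ratio was 1.13 in SCC1 and 1.13 in SCC2, against -0.61 and -0.49 over all genes of the authors' deposited table. Double negative over proliferative, 9 were higher (15.5% of all genes) and 1 lower (25.2%), and quiescent over double negative, 0 were higher (1.31%) and 0 lower (2.30%). The shares and medians over all genes are those of the authors' list of differentially expressed genes, not of the genome. The other 34 pathway genes had no ratio and enter none of these counts. These comparisons share libraries and are not independent. No test was run on these ratios.

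The genes counted as higher in quiescent cells included direct targets and inhibitors of the pathway. By the authors' deposited table the quiescent over proliferative log2 ratio of Ctgf, a matrix-associated growth factor, was 3.08 in SCC1 and 3.49 in SCC2. The authors' deposited table gave Id1 2.93 in SCC1 and 1.90 in SCC2, and Id3 2.70 in SCC1 and 2.14 in SCC2; both encode inhibitors of helix-loop-helix factors. Among genes that act against the receptor, as Smad7 does, the authors' deposited table gave Bambi, a decoy receptor, 1.13 in SCC1 and 2.82 in SCC2, and Ppp1r15a, which guides a phosphatase to the type I receptor with Smad7, 1.02 in SCC1 and 1.13 in SCC2. Of the other CDK inhibitors, only Cdkn2b and Cdkn2c had a ratio. The authors' deposited table gave Cdkn2b 0.91 in SCC1 and 0.92 in SCC2, short of the threshold. It gave Cdkn2c -1.64 in SCC1 and -1.46 in SCC2. These values do not stand in for Cdkn1a, which had no ratio.

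The remaining genes with a ratio did not reach the threshold in both tumours. The authors' deposited table gave the ligand Tgfb1 1.44 in SCC1 and 0.08 in SCC2, Tgfb2 0.64 in SCC1 and 0.17 in SCC2, and Tgfb3 0.36 in SCC1 and 0.71 in SCC2. For Eng the authors' deposited table gave 0.72 in SCC1 and 1.88 in SCC2, and for Junb, an AP-1 subunit, 1.80 in SCC1 and 0.85 in SCC2. Id2 and Snai1 had opposite signs in the 2 tumours.

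The tissue label could be checked only in part, because no expression levels were given. Of 7 keratinocyte markers, 4 (Krt14, Trp63, Itga6 and Cdh1) had an ATAC peak within 1 kb of the gene body, and Krt5, Itgb4 and Epcam had 0. The same measure gave 4 of 7 fibroblast, 5 of 6 immune and 3 of 4 endothelial markers, so it did not single out keratinocytes. At starts with a known position, a peak within 1 kb was found for 0 of 3 keratinocyte, 0 of 3 fibroblast, 2 of 3 immune and 0 of 2 endothelial markers. Epcam alone had a ratio, in the authors' deposited table -3.21 in SCC1 and -0.40 in SCC2 for quiescent over proliferative cells. Markers of other cell types also differed in the contrast of the pathway genes, and more in SCC2 than in SCC1 for most of them. By the authors' own deposited ratios, listed for 6 of 7 fibroblast markers, these ranged from -0.06 to 2.75 in SCC1 and from 2.54 to 5.38 in SCC2. The authors' deposited table gave 3 of 6 immune markers values from -0.30 to 1.65 in SCC1 and from 2.49 to 4.24 in SCC2, and the endothelial marker Cldn5 had -0.83 in SCC1 and 2.75 in SCC2. Their part in the ratios of the pathway genes was not tested, and the merged ATAC list cannot assign a peak of Smad7, Cdkn1a or Tgfbr2 to a cell type.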

How the data were processed

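The deposited tables of the authors were used for the samples described above. Per the submitters' processing notes RNA was handled with TopHat2 2.0.9, Cufflinks 2.2.0 and Cuffdiff 2.2.0, and ChIP, input and ATAC libraries with Bowtie (and Picard 1.88 for ChIP and input), on mm10; mm9 is also named for the double negative RNA libraries. The sources used here do not name the callers behind the sites, peaks, copy numbers and mutations. Deposited expression values are log2 ratios between populations of 1 tumour, with no levels. The deposited p-value of each copy number region is the authors' own. Sites, peaks, copies and mutations are other deposited values, positions or whole numbers with no depth, so no interval could be given.

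Overlaps (at least 1 bp) with RefSeq gene bodies widened by 50 kb were counted in Python 3.11.15 with numpy 2.4.6, pandas 2.3.3 and matplotlib 3.10.9, and the counting was tested on simulated data. No hypothesis test was run: each population has 1 library a tumour, and the ChIP 1 library. Windows of 10 and 100 kb, site centres, wider peaks, other overlap rules and each tumour alone were tried as alternatives. The genes and the pathway and marker lists were chosen with earlier results of these data known; genes named are the 3, the protein-coding genes of their windows, pathway genes with a ratio or the 5 highest site counts (with ties), and the 3 most alike for each. The count of marker peaks over gene bodies, the site counts of the other CDK inhibitors, receptors and ligands, and the sites beside genes of at least 9 sites were added after values were seen. The Tgfbr2KO libraries were not analysed here, and whether the merged list includes them is not stated. The values of 1 pathway gene counted among those with a ratio are not reported here.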

Additional observations from a re-analysis of the deposited data

Results flagged for a closer look

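Among the pathway genes, 2 had quiescent over proliferative log2 ratios of opposite sign in the 2 tumours. For Id2, an inhibitor of helix-loop-helix factors, the authors' deposited table gave 1.18 in SCC1 and -0.28 in SCC2. For Snai1, a repressor of epithelial genes, the authors' deposited table gave -0.23 in SCC1 and 3.24 in SCC2. The difference between the tumours was not tested, since each ratio rests on 1 library a population.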

How the results depend on the processing

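Of 44 recomputed values 37 stayed within 1.5 times the reported count. The 7 others followed the width of the window or the size asked of a ratio. At 10 kb either side Cdkn1a had 2 sites and 3 peaks, and Tgfbr2 had 0 sites. At 100 kb Cdkn1a had 7 sites and 8 peaks, and Smad7 had 15 peaks. The order of site counts, Smad7 above Cdkn1a above Tgfbr2, was the same at all 3 widths (7, 2 and 0 at 10 kb; 13, 7 and 1 at 100 kb). Counting every ratio with the same sign in both tumours gave 12 pathway genes higher in quiescent cells. With 1 tumour left out the count was 8 to 9 higher and 1 lower. No peak was narrower than 300 bp, so that limit removed none. Counting a peak within 500 bp of a site gave 4 sites at Smad7.

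The ratios are differences within 1 tumour and so are paired by tumour already, and no test with or without a replicate block was run on them. The ChIP had 1 library, the site and peak lists carry no score, and the ratios carry no level, so the depth behind each value is unknown.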
